A study of Mus musculus with 32 samples.

Results

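The transcriptomes of 2 mouse sarcomas were compared, osteosarcoma in 7 libraries and synovial sarcoma in 6, chosen by the title and tissue label from 32 libraries in all. The osteosarcomas are the libraries whose titles name Rb1 and p53, with Col1Cre in 4 (22, 26, 27 and 31) and Prx1Cre in 3 (28, 38 and 42), so that Col1CreRb1p53N22 is called Col1Cre 22 here. Cre is a DNA recombinase, and the name before it gives the promoter, that of type I collagen or of Prx1. The synovial sarcomas are the libraries whose titles begin with Myf5-SSM2/PLUC (37-4, 37-7, 37-8, 39-5, 39-9 and 44). Levels in the remaining 19 libraries, 13 clear cell sarcomas and 6 controls, are given for reference. All clear cell sarcoma titles name EA1. Their labels name the Cre as Rosa26CreER, TATCre, Prx1CreERT2 or Bmi1IRESCreERT2. The control titles read Chest in 5 cases and Bone in 1. Some titles add a body site or side, such as thigh in Prx1Cre 28 and Right in Col1Cre 26. The labels give no strain, age, sex, batch or allele beyond these names, and do not say what the controls carry. Tumour type, genotype and driving promoter differ together, and their parts in a difference cannot be told apart. Titles that share a number (37 in 3 synovial sarcomas, 39 in 2) may stand for related tumours, which the labels leave unsaid. Since no label says that the libraries came from separate animals, p-values speak only of the scatter among these libraries, which can be technical.

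Osteosarcoma is a tumour of cells that make bone matrix, and loss of the tumour suppressors RB and p53 is a well known lesion in it. Prx1 is active in the mesenchyme of the early limb bud and the type I collagen promoter in osteoblasts. Synovial sarcoma carries a fusion of SS18, a subunit of the BAF chromatin remodelling complex, with an SSX gene, and Myf5 marks the skeletal muscle lineage. The fusion protein is known to act on chromatin and to switch on genes that are otherwise held silent. The table names transcripts by UCSC identifiers, and none of the tables used here pairs these with gene names or sequences. The transcripts are therefore described by their level, length and pattern, and 2 identifiers in each direction stand for the leading ones. Marker genes of bone, muscle or other cells could not be looked up, so neither the tissue labels nor the Rb1 and p53 genes were checked against expression.

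Depth, in M reads, ran from 9.33 to 12 in the 7 osteosarcomas and from 8.73 to 13.1 in the 6 synovial sarcomas, with no difference beyond the spread (exact permutation test, two-sided, p = 0.696). More transcripts were above 0 in synovial sarcoma, 13763 to 15576 per library, than in osteosarcoma, 12766 to 13920 (exact permutation p = 0.00175, 0.0102 after adjustment over 7 library measures). The groups overlapped in this number through 1 osteosarcoma, Col1Cre 27. Reads in the listed transcripts made up 89.4% to 95.6% of the depth in 6 osteosarcomas, 76.5% to 91.1% in the synovial sarcomas and 73.9% to 78.5% in the controls. The osteosarcoma Prx1Cre 42, with 74.2%, stood at the level of the controls. So did the synovial sarcoma 44 (76.5%) and the clear cell sarcoma Bmi1CreER-EA1N2 (77.8%). With all 7 osteosarcomas the share did not differ from synovial sarcoma beyond the spread (exact permutation p = 0.192). Without Prx1Cre 42 the unadjusted exact permutation p was 0.00649. This repeat was added after seeing that Prx1Cre 42 was the lowest osteosarcoma in this share, while the synovial sarcoma 44 was kept. Leaving out such a library favours a difference, so no difference is read from it. Another osteosarcoma, Prx1Cre 38, stood apart in transcript length. For each library the deviation of every transcript from the average of the 2 tumour means was taken on the log2 scale, and the median over transcripts of 500 to 1000 bases was subtracted from that over transcripts of at least 4000 bases. The result was -0.851 in Prx1Cre 38 and -0.239 to 0.0655 in the other 6 osteosarcomas. Results that rest on Prx1Cre 38 or Prx1Cre 42 are given with and without them.

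Osteosarcoma and synovial sarcoma differed at 4179 of the 15230 transcripts tested, 27.4%, and most of the differences were levels that were lower in osteosarcoma. The values tested were log2(RPKM + 1), where RPKM is reads per kilobase of transcript and M reads of depth, and a call is an adjusted p under 0.05 (limma with an intensity trend, Benjamini-Hochberg). In osteosarcoma 866 transcripts (5.69%) were higher and 3313 (21.8%) lower. A change of at least 2-fold was reached by 643 of the higher and 2466 of the lower calls, and at least 8-fold by 87 and 453. At least 32-fold was reached by 13 and 63. Without Prx1Cre 42, 131 higher transcripts reached 8-fold and 24 reached 32-fold. In bulk tissue, fewer cells of a type and less RNA per cell cannot be told apart. Of the 11051 transcripts without a call, 3727 had a 95% interval that lay within 2-fold in either direction. For the remaining 7324 the interval reached past 2-fold. The interval is that of log2(RPKM + 1), so transcripts near 0 in both tumours can lie within 2-fold through the added 1.

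**Figure D1:**
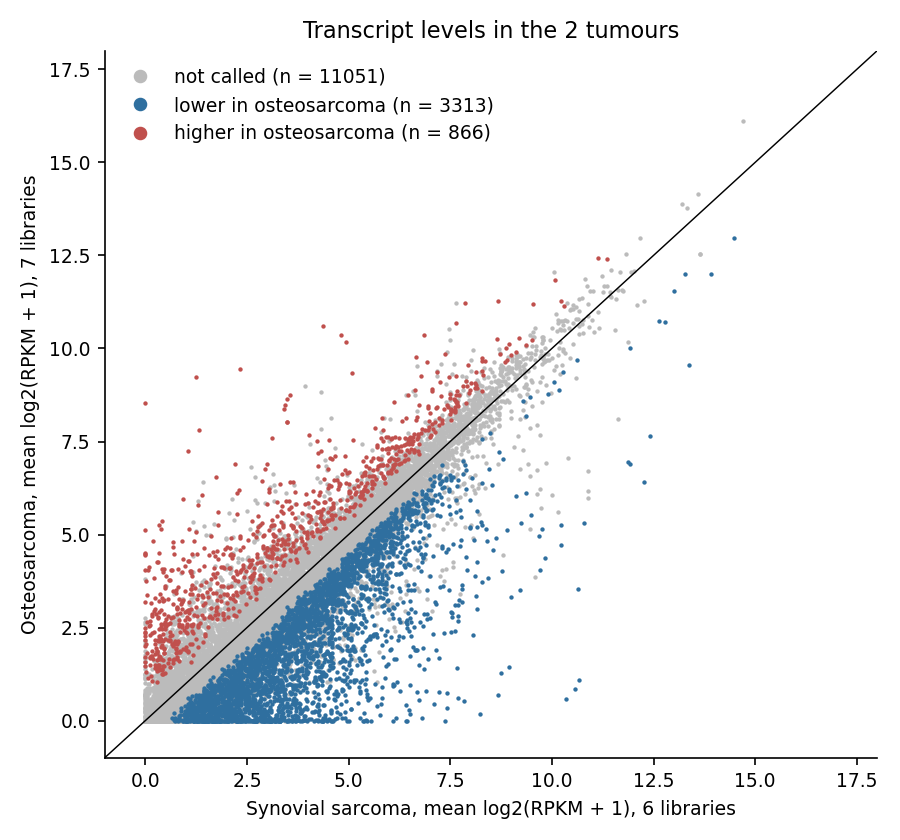
Mean log2(RPKM + 1) of each of the 15230 tested transcripts in the 6 synovial sarcomas (horizontal axis) and the 7 osteosarcomas (vertical axis), with the line of equal levels. The 866 transcripts called higher in osteosarcoma lie above the line, and the 3313 called lower lie below it, many of them near 0 in osteosarcoma.

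The split between higher and lower calls depended on the scaling. The median log2 difference of all transcripts, osteosarcoma minus synovial sarcoma, was -0.32 with the deposited RPKM. After median ratio scaling of the libraries it moved by 0.23, and 1515 transcripts were higher and 2234 lower. With quantile normalization it moved by 0.37, and 2016 were higher against 1762 lower, which turned the balance round. Of the 866 higher calls, 863 were also called higher after median ratio scaling and 821 after quantile normalization. The lower calls held less well, with 2234 and 1674 of the 3313 still called. Under all 3 scalings, 819 transcripts were higher and 1506 lower in osteosarcoma. The predominance of lower calls in the deposited values is therefore a statement relative to the depth of each library.

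In the deposited RPKM, complete separation of the 2 tumours was more frequent among the lower transcripts. It was not counted under the 2 other scalings, so this balance too is relative to the depth of each library. The 7 osteosarcomas were all above the 6 synovial sarcomas at 118 transcripts (0.775% of those tested) and all below them at 1088 (7.14%). Without Prx1Cre 42 these numbers were 356 and 1396, and without the synovial sarcoma 39-5 the first was 189. An all-or-none pattern was found in synovial sarcoma. At 24 transcripts each of the 6 synovial sarcomas had at least 20 reads and all 7 osteosarcomas were listed at 0, and 21 of these were listed at 0 in all 6 controls too. Of the 24, 6 were listed at 0 in all 13 clear cell sarcomas as well. Their level in synovial sarcoma was moderate, with a median of 9.59 RPKM. The reverse pattern, at least 20 reads in each osteosarcoma and 0 in all 6 synovial sarcomas, was met by 0 transcripts. The count of 24 rested on Col1Cre 31, without which it was 107. Leaving out any other single library gave 24 to 34 transcripts for the first pattern and 0 to 2 for the reverse. When 1 library of the silent group was allowed to have reads, 121 transcripts met the first pattern and 2 the reverse. A value of 0 can also arise where few reads are expected, so it is given as listed at 0 and not as absence.

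The transcript with the largest rise in osteosarcoma under the naming rule was uc008sch.2, with a recovered length of 2503 bases. The rule took called transcripts of at least 100 bases, a mean of 5 RPKM or more in the tumour with the higher level, and no overlap among the 13 libraries. The RPKM values of uc008sch.2 were 301, 107, 200 and 316 in the Col1Cre tumours 22, 26, 27 and 31, and 191, 155 and 27.1 in the Prx1Cre tumours 28, 38 and 42. In the synovial sarcomas 37-4, 37-7, 37-8, 39-5, 39-9 and 44 it had 0.768, 0.275, 1.93, 1.68, 0.806 and 1.5 RPKM. All 7 osteosarcomas were high, Prx1Cre 42 the least so, and all 6 synovial sarcomas were close to 0. The controls (2.75 to 8.65 RPKM) and the clear cell sarcomas (1.33 to 18.5) all lay below every osteosarcoma, and the controls lay above every synovial sarcoma. This is a log2 fold change of 6.18 (SE 0.5; adjusted p from limma 4.63e-11; exact permutation p = 0.000583, the smallest that 1716 splits can give). Without Prx1Cre 42 it was 6.58 (SE 0.45, limma adjusted p = 1.62e-12).

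Next came uc008vjr.2, of 2516 bases, which varied widely within osteosarcoma. Its values were 802, 442, 1373 and 1610 RPKM in Col1Cre 22, 26, 27 and 31, and 832, 48 and 49.4 in Prx1Cre 28, 38 and 42. In the synovial sarcomas it had 7.55, 13, 10, 14, 7 and 11.6 RPKM in the order above. Thus 5 osteosarcomas had 442 RPKM or more, whereas Prx1Cre 38 and 42 were within the range of the clear cell sarcomas (5.02 to 219) and near the highest control (46.4). The difference came to 5.15 on the log2 scale (SE 0.84; adjusted p from limma 2.38e-05; exact permutation p = 0.00175). Against synovial sarcoma it was 6.39 (SE 0.88) in Col1Cre and 3.5 (SE 0.96) in Prx1Cre tumours. The difference of 2.89 (SE 1.04) between the Cre groups did not pass the test (limma adjusted p = 0.249).

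Under the same rule, the transcript lowest in osteosarcoma relative to synovial sarcoma was uc007pav.2, a short one of 134 bases. It was listed at 0 in the osteosarcomas Col1Cre 22 and 26 and Prx1Cre 28 and 42, and had 0.696, 5.83 and 1.47 RPKM in Prx1Cre 38, Col1Cre 27 and Col1Cre 31. These values stand for 1, 9 and 2 reads. The synovial sarcomas had 416, 424, 420, 406, 648 and 242 RPKM, or 362 to 947 reads. The clear cell sarcomas had 84.2 to 2022 RPKM, and the controls 0 to 35.8. Every synovial sarcoma was thus above every osteosarcoma and every control. On the log2 scale the difference was -7.99 (SE 0.82; adjusted p from limma 7.4e-09; exact permutation p = 0.000583). Its size depended on how the near-zero values were treated, from -10.16 with a pseudocount of 0.1 to -5.63 on reads scaled to depth and not to length.

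Nearly the same pattern was seen in uc007pau.2, of 1032 bases, which had 3647 to 8297 reads in the synovial sarcomas and 1 to 46 in the osteosarcomas. It had 4.07, 4.78, 1.93 and 1.15 RPKM in Col1Cre 22, 26, 27 and 31, and 1.05, 0.0904 and 1.62 in Prx1Cre 28, 38 and 42. The synovial sarcomas had 733, 449, 472, 271, 737 and 454 RPKM, and the clear cell sarcomas 27.1 to 2172. The controls, with 13 to 23.8 RPKM, lay between the 2 tumours without overlap with either. The difference in log2(RPKM + 1) was -7.5 (SE 0.76; adjusted p from limma 6.11e-09; exact permutation p = 0.000583). With the synovial sarcomas that share a title number averaged it was -7.46 (SE 0.98, limma adjusted p = 3.04e-06). These 4 transcripts were chosen for their difference between the same libraries, so their exact p-values describe the separation and add no independent support. Whether uc007pav.2 and uc007pau.2, whose identifiers are adjacent, belong to the same gene could not be looked up. They may therefore not be separate cases. On the deposited RPKM the naming rule was met by 87 higher transcripts, with a median log2 fold change of 1.55. It was met by 801 lower ones, with a median of -2.35, and was not applied under the other scalings.

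**Figure D2:**
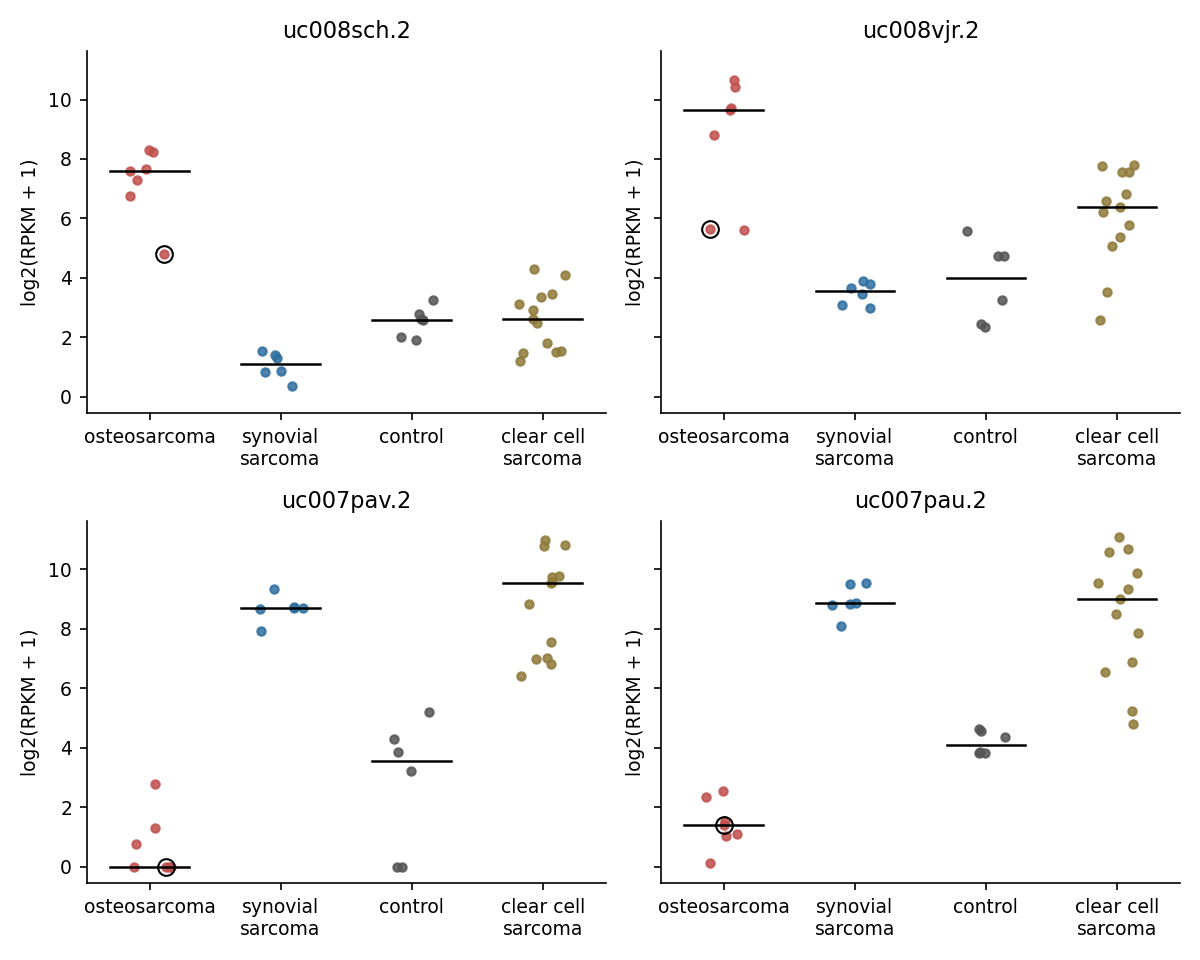
Values of the 4 leading transcripts as log2(RPKM + 1), 1 point per library, with the median of each group as a line and Prx1Cre 42 circled. uc008sch.2 and uc008vjr.2 are high in osteosarcoma, and uc007pav.2 and uc007pau.2 are near 0 there and high in synovial and clear cell sarcoma.

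In both sets of calls the controls lay mostly nearer to the tumour with the lower level. The controls were low in general, with their mean below both tumours at 54.3% of all tested transcripts. This share was 62.7% of the higher and 37.2% of the lower calls. The 866 transcripts that were higher in osteosarcoma had a median of 39.9 RPKM there, 9.37 in synovial sarcoma, 6.76 in the controls and 13.6 in clear cell sarcoma. For 89.1% of them the mean of the controls lay nearer to synovial sarcoma than to osteosarcoma, and for 78.3% that of clear cell sarcoma did. Over all tested transcripts these shares were 46.6% and 53%. The 3313 lower transcripts had a median of 3.26 RPKM in osteosarcoma, 13.9 in synovial sarcoma, 4.0 in the controls and 7.36 in clear cell sarcoma. For 72.7% of them the controls lay nearer to osteosarcoma, against 53.4% of all tested, and clear cell sarcoma was divided between the 2 sides (50.4%). Counted by reads the lower set looked otherwise, since the controls had 21.8% to 30.4% of their depth in it, like synovial sarcoma (19.6% to 30.9%) and above osteosarcoma (4.81% to 14.7%). The calls were chosen on the 2 tumours, so these shares describe the sets and are no test.

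The sets also differed in length and level. Among transcripts under 100 bases, 5.68% were called higher and 8.73% lower in osteosarcoma. The share of lower calls was greater in each longer class, 13.6%, 17.7%, 23.7% and 30.3%, and reached 40.3% of the 1175 transcripts of 4000 bases or more, of which 3.23% were higher. The median log2 difference went from -0.11 under 100 bases to -0.63 at 4000 or more. Among transcripts of like level, the class of 4000 bases or more also had the lowest median. Between 5 and 20 RPKM the median was -0.32 for those under 100 bases and -0.77 for those of 4000 bases or more. Between 20 and 100 RPKM it was -0.14 and -0.42. There the classes from 100 to 2000 bases showed no fall of note (-0.1, -0.11 and -0.15), and that of 2000 to 4000 had -0.24. Without Prx1Cre 38 the same share of lower calls at 4000 bases or more was 34.6%, with a median of -0.51. After median ratio scaling it was 28%, with a median of -0.39. After quantile normalization the lower share was 19.2% and the median -0.1, and the classes from 100 to 4000 bases held more higher than lower calls. By library, the long transcripts (4000 bases or more, relative to 500 to 1000) lay between -0.0176 and 0.311 in the synovial sarcomas and between -0.29 and -0.05 in the controls. In osteosarcoma they lay between -0.851 and 0.0655 (exact permutation p = 0.00466 against synovial sarcoma, 0.0109 after adjustment over 7 measures). Without Prx1Cre 38 the exact permutation p was 0.00649. The cause of this difference in length was not tested.

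At the highest levels the balance was the other way. Of the 1363 transcripts with a geometric mean of 100 RPKM or more over the 13 libraries, 11.8% were higher and 5.36% lower in osteosarcoma, and the median log2 difference was 0.21. Between 1 and 5 RPKM, 5.5% were higher and 29.5% lower, with a median of -0.55. Median ratio scaling kept this order, with 25.8% higher and 2.57% lower in the top class, whereas quantile normalization gave 8.8% and 11%. The higher set carried 6.93% to 17.5% of the reads of an osteosarcoma (12.2% to 17.5% without Prx1Cre 42). In a synovial sarcoma it carried 2.66% to 4.57%. The lower set, with more transcripts, carried 4.81% to 14.7% and 19.6% to 30.9%. The 10 transcripts with the most reads held 6.36% to 19.9% of the depth in osteosarcoma and 5.27% to 11.7% in synovial sarcoma, a difference that did not pass adjustment (exact permutation p = 0.0355, adjusted p = 0.0622). Without Prx1Cre 42, which had the lowest share of the osteosarcomas, the unadjusted exact permutation p was 0.00649. This repeat too was added after seeing the data and leaves out the contrary library, so no difference is read from it.

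**Figure D3:**
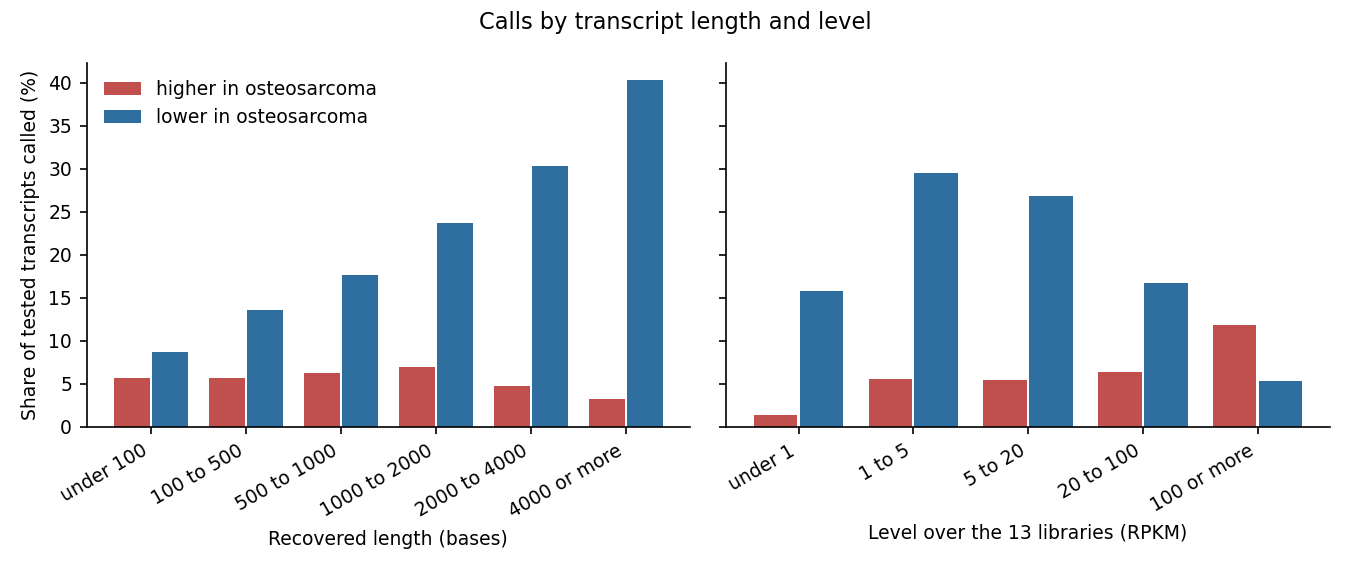
Share of tested transcripts called higher or lower in osteosarcoma, by recovered length (left) and by geometric mean level over the 13 libraries (right), in percent. Lower calls reach 40.3% among transcripts of 4000 bases or more, and higher calls outnumber lower ones, 11.8% against 5.36%, at 100 RPKM or more.

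Whether a library follows the difference was measured by leaving it out. For each of the 13 libraries, transcripts were called without it, and its own value was set against the midpoint of the 2 group means of the remaining libraries. The synovial sarcomas lay on their own side for 57.4% to 92.5% of the higher calls and 59.2% to 95% of the lower ones. For 6 osteosarcomas these shares were 64.3% to 81.3% and 67.7% to 86.2%. Prx1Cre 42 lay on the osteosarcoma side for 294 of 1111 higher calls, 26.5%, and for 70.8% of the lower ones. The control libraries lay on the osteosarcoma side for 9.12% to 27.4% of the 866 higher and 59.9% to 73.1% of the 3313 lower calls, and the clear cell sarcomas for 15.2% to 40.9% and 33.5% to 73.4%. Prx1Cre 42 was within both ranges. Its shares, however, were taken over the calls and midpoints made without it, and these ranges over those made with it, so the sets of transcripts differ. Among the synovial sarcomas, 39-5 had the lowest share of the higher calls (57.4%). The library 44, the only one whose title number is not shared, had the lowest share of the lower calls (59.2%). The same libraries were most often the one nearest to the other tumour. Prx1Cre 42 was the lowest osteosarcoma at 419 of the 866 higher transcripts (48.4%), and 39-5 the highest synovial sarcoma at 381 (44%). The other osteosarcomas were lowest at 3.12% to 14.5% each, and the other synovial sarcomas highest at 5.08% to 20.4% each. Among the 3313 lower transcripts, 44 was the lowest synovial sarcoma at 1709 (51.6%), against 3.65% to 16.5% for each of the others. The osteosarcomas were more even, each being the highest at 10.2% to 20.1%, the most in Col1Cre 27 (665).

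**Figure D4:**
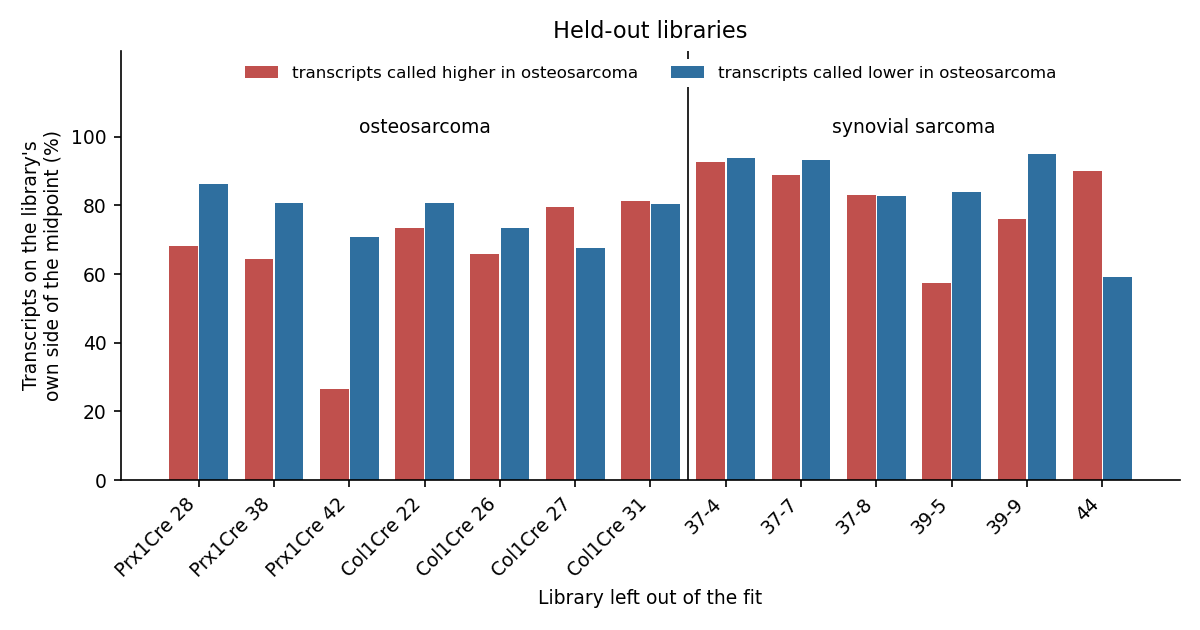
For each library left out of the fit, the share of transcripts, in percent, at which it lies on its own tumour's side of the midpoint, for transcripts called higher and lower in osteosarcoma. Prx1Cre 42 reaches 26.5% for the higher calls, whereas the other 6 osteosarcomas reach 64.3% to 81.3%.

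Spread within each tumour is given as a description. The median SD of log2(RPKM + 1) over all tested transcripts was 0.77 in osteosarcoma and 0.5 in synovial sarcoma, and 0.96 and 0.49 over the 866 higher calls. Without Prx1Cre 42 the osteosarcoma values were 0.69 and 0.79. Spearman's rho between libraries, over transcripts of at least 100 bases, is given as a description, since all libraries share the same transcripts. It was 0.853 to 0.935 in the 15 pairs of synovial sarcomas, 0.706 to 0.921 in the 21 pairs of osteosarcomas and 0.653 to 0.861 in the 42 pairs between the tumours. The 6 osteosarcoma pairs with Prx1Cre 42 had the lowest values, 0.706 to 0.755, against 0.776 to 0.921 in the 15 pairs without it, and the library most like it was the control Bone3 (0.807). Synovial sarcomas that share a title number had a rho of 0.886 to 0.906 (4 pairs), within the range of those that do not (11 pairs, 0.853 to 0.935).

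Repeating the comparison without Prx1Cre 42 gave 1111 higher and 3363 lower transcripts, and 790 of the 866 higher and 3001 of the 3313 lower calls were kept. With the synovial sarcomas of number 37 and of number 39 each averaged, which leaves 3 values for this tumour, 346 were higher and 1588 lower. Nearly all of these, 346 and 1586, were among the calls from the separate libraries. Both changes together gave 629 higher and 1830 lower transcripts, of which 577 and 1598 changed at least 2-fold. Under these 3 repeats, the 2 other scalings and the deposited RPKM with all libraries, 325 transcripts were called higher and 1175 lower every time. With the 13 libraries alone in the fit, 479 of 13013 tested transcripts were higher and 2364 lower.

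**Figure D5:**
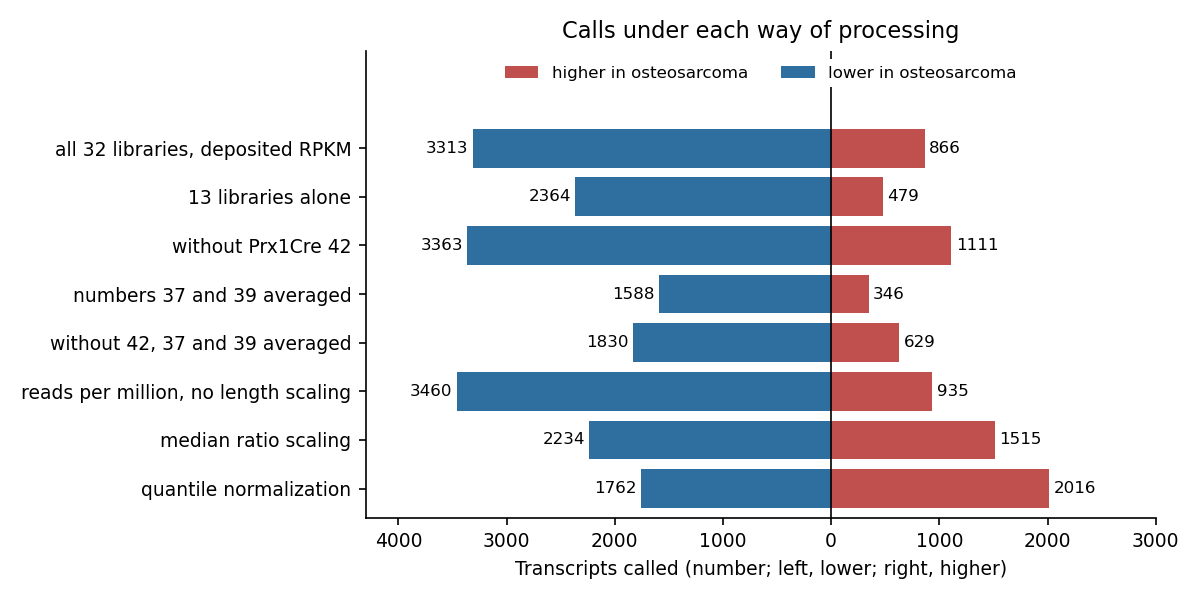
Number of transcripts called lower (left) and higher (right) in osteosarcoma under each way of processing. The number falls to 346 higher and 1588 lower when synovial sarcomas that share a title number are averaged, and the balance turns to 2016 higher and 1762 lower after quantile normalization.

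Finally, the osteosarcomas were divided by the Cre in their titles, and each was set against the same 6 synovial sarcomas. The 4 Col1Cre tumours differed at 2588 transcripts (17% of those tested), 645 higher and 1943 lower. Without Col1Cre 31, 424 were higher. The 3 Prx1Cre tumours differed at 3662 (24%), 538 higher and 3124 lower. Without Prx1Cre 28 the higher count was 837, and without Prx1Cre 42 it was 862. With the title numbers averaged, Col1Cre tumours differed at 1255 transcripts (315 higher, 940 lower) and Prx1Cre tumours at 2121 (255 higher, 1866 lower). The difference between the Cre groups was tested directly and called 33 transcripts (0.217%), 32 of them higher in Col1Cre. Of the 32, 30 had no overlap between the 4 and the 3 libraries. Of all tested transcripts, 653 (4.29%) had every Col1Cre above every Prx1Cre tumour, and 82 (0.538%) had every Col1Cre below. The call used the same contrast, so nothing is read from the count of 30. The median level of the 32 was 42 RPKM in Col1Cre, 9.04 in Prx1Cre, 35.2 in synovial sarcoma and 16.1 in the controls. None of the 4 transcripts described above was among them. This count depended on single libraries. It was 1035 without Prx1Cre 28, which leaves the 2 libraries that stood apart, 122 without Prx1Cre 38, 26 without Prx1Cre 42, 73 without Col1Cre 26, and 6 and 17 without Col1Cre 27 and 31.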

How the data were processed

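RNA was purified with a Qiagen kit with DNase and made into Illumina TruSeq libraries, per the labels' protocols. The submitters' processing notes name CASAVA 1.8.2, Novoalign 2.07.03 and the build mm9, with no counting program in the sources used here. As deposited, the authors' table gives RPKM values for 55419 transcripts, 1 column per library, and all 32 columns were matched by title. The human table was not used here. The test took transcripts that reached an RPKM of 1 in 6 or more of the 32 libraries, with 1 limma model (version 3.58.1, R 4.3.3) of 4 tissue types on log2(RPKM + 1), a scale that understates changes of low transcripts. Whole reads, depth and lengths were recovered from the steps of the values, for 15211 of the 15230 tested transcripts. Some recovered lengths were a few bases, and no source used here explains them. Reads of overlapping transcripts may have been split or shared. Single values and library measures were compared by exact permutation over libraries. The naming rule printed 2 transcripts per direction. Members, rules and alternatives were chosen with earlier results of these data known, and voom on recovered reads, the tests of library measures without Prx1Cre 38 or Prx1Cre 42, and counts without overlap leaving out each library, were added after seeing the data. Gene lists were not used, since 0 identifiers matched the name tables.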

Additional observations from a re-analysis of the deposited data

Results flagged for a closer look

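Several libraries lay far from the rest of their group by Dixon's test, which chance alone passes in about 1 group in 20, and 37 groups of values were tested. In osteosarcoma, Prx1Cre 42 had 74.2% of its depth in listed transcripts and lay on the osteosarcoma side for 26.5% of the higher calls made without it. Prx1Cre 38 had the low value of -0.851 for long against middle-length transcripts. Col1Cre 27 had 5.83 RPKM of uc007pav.2, or 9 reads, where the other 6 osteosarcomas had at most 1.47. In synovial sarcoma, 39-5 had 0.984% of its depth in the most abundant transcript, against 2.08% to 2.58% in the other 5, and 44 lay on its own side for 59.2% of the lower calls made without it. The direct test of Col1Cre against Prx1Cre osteosarcoma gave a different contrast with synovial sarcoma at 33 transcripts.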

How the results depend on the processing

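Counts of calls that moved by more than 1.5 times are given here for the main comparison and the 2 Cre groups. Averaging the synovial sarcomas of title numbers 37 and 39 gave 1934 calls (346 higher, 1588 lower), and 2459 (1830 lower) with Prx1Cre 42 left out as well. With the 13 libraries alone 479 were higher. Median ratio scaling gave 1515 higher, and quantile normalization 2016 higher and 1762 lower. Averaging gave 1255 calls for Col1Cre (315 higher, 940 lower) and 2121 for Prx1Cre (255 higher, 1866 lower) against synovial sarcoma. Higher calls for Prx1Cre were 837 without Prx1Cre 28 and 862 without Prx1Cre 42, and for Col1Cre 424 without Col1Cre 31. The cause was not tested, except that averaging leaves fewer values. Leaving out 1 library at a time gave 3333 to 4474 calls, 589 to 1111 higher and 2675 to 3374 lower, 1921 to 2249 for Col1Cre, 2869 to 3985 for Prx1Cre, and 6 to 1035 for Col1Cre against Prx1Cre. The 4 named transcripts kept their direction and passed the limma test in all 26 alternatives, with log2 fold changes of 4.67 to 7.16 for uc008sch.2, 4.74 to 5.66 for uc008vjr.2, -10.16 to -5.63 for uc007pav.2 and -8.47 to -6.16 for uc007pau.2. No paired analysis was possible because the labels give the 2 tumours no common replicate number. At about 10 M reads a library, transcripts of few reads are often listed at 0, which limits the all-or-none counts.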
